A study of Homo sapiens with 6 samples.

Results

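Peaks of chromosome 17 were taken from 2 lists of RNA sites bound by DHX9 in HEK293 cells, a human line of embryonic kidney origin. Members were all peak regions on chromosome 17 of the human assembly hg19 except those whose midpoint fell in 3 stretches, 1.24 to 1.31 Mb, 43.1 to 43.14 Mb and 73.1 to 73.18 Mb. The rule used position alone, but it was set with earlier results of these data known. It gave 2650 of the 28449 peaks of both lists, namely 2086 of 21618 for the antibody labelled DHX9-Rb and 564 of 6831 for the antibody labelled DHX9-mAb. The 3 stretches held a further 152 DHX9-Rb and 57 DHX9-mAb peaks, which were left out. The sites were found by FLASH, in which ultraviolet light fixes a protein to the RNA it touches before the protein is captured on antibody-coated beads and its RNA is sequenced. Each antibody was used on 2 biological replicates of these cells, for which the labels name no treatment, and 1 list stands for both, so no spread between replicates can be given. An IgG-Rb control with 2 replicates belongs to the series, and its material was mixed with that of DHX9 before cDNA synthesis. Its signal was not analysed here. The lists hold the first base, the last base and the strand of each peak, with no height and no p-value, so the depth behind a peak is unknown.

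DHX9 is an RNA helicase of the nucleus that opens double-stranded RNA. Alu elements are short repeats that lie in great number in and between human genes, and a pair of them in opposite orientation in the same transcript can fold back into a long hairpin. Such hairpins are a known substrate of DHX9, and they lie mostly in introns and untranslated regions. Chromosome 17 is among the human chromosomes richest in genes and in Alu elements, with dense gene blocks separated by gene-poor stretches. A group of peaks on 1 strand is what sites along a single RNA would give, but the lists do not name transcripts. Regions are therefore called by their hg19 position, since the gene annotation at hand is on GRCh38 and no position was converted.

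Chromosome 17 carried 26.0 DHX9-Rb members and 7.02 DHX9-mAb members per Mb between its first and last peak, over 80.3 Mb. This length includes the left-out stretches, but their peaks are not counted, so the densities are slightly low. Chromosome 19 carried 49.4 and 17.2 per Mb, and chromosome 22 carried 34.9 and 12.2. The strands were used nearly evenly, with a small excess on the minus strand. There were 977 plus and 1109 minus DHX9-Rb peaks, so that 46.8% lay on the plus strand, against 53.3% on all other sequences together. For DHX9-mAb the numbers were 277 and 287. Chromosome 17 peaks were about as wide as those of all other sequences together, but narrower than those of chromosomes 19 and 22. The median width was 200 nt for DHX9-Rb (quartiles 153 and 268.75) and 187 nt for DHX9-mAb (143 and 240), against 201 and 191 nt on all other sequences. The medians were 220 and 210 nt on chromosome 19 and 213 and 198 nt on chromosome 22.

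Peaks gathered in a minority of the chromosome. Of the 804 windows of 100 kb between the first and last peak, 266 (33.1%) held a member, 2 held only left-out peaks and 536 held no peak at all. With the left-out peaks counted, 33.3% of the windows held a peak. On chromosome 19 the share of windows with a peak was 45.6%, and on chromosome 22 it was 38.7%. All 266 windows held DHX9-Rb peaks, and 160 of them also held DHX9-mAb peaks, while no window held DHX9-mAb peaks alone. Where a window had a DHX9-Rb peak, the median number was 5, and 52 windows had exactly 1. The 76 windows with 10 or more held 1423 peaks, or 68.2% of the DHX9-Rb peaks, and in 50 of these 76 all DHX9-Rb peaks shared 1 strand. All 27 windows with 20 or more DHX9-Rb peaks also held DHX9-mAb peaks. Across the 266 windows Spearman's rho between the peak numbers of the antibodies was 0.79. Both lists come from the same cells, and windows are not replicates, so this is a description.

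**Figure D1:**
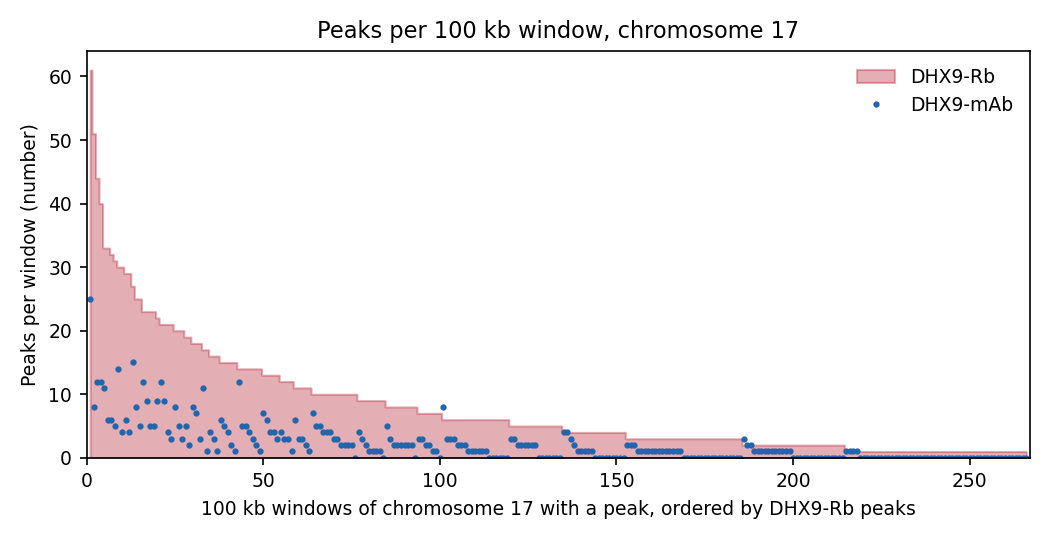
Number of peaks in each of the 266 windows of 100 kb on chromosome 17 that held a peak, ordered from left to right by DHX9-Rb peaks (red area), with the DHX9-mAb peaks of the same window as blue points. DHX9-Rb falls from 61 peaks in the densest window to 1 in the last 52, and DHX9-mAb exceeds DHX9-Rb in 2 windows.

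The densest 10 windows held 385 DHX9-Rb members, 18.5% of those on the chromosome, and several of them lay near 27 to 29 Mb. Among the members, the window with the most, with peaks from 29100865 to 29200061, had 61 peaks of DHX9-Rb and 25 of DHX9-mAb and was of mixed strand, with 54 plus and 7 minus DHX9-Rb peaks. The next, from 27111132 to 27185302, held 51 DHX9-Rb peaks, of which 47 were on the minus strand, but only 8 DHX9-mAb peaks. Its DHX9-Rb number came near that of the first window, while its DHX9-mAb number was far smaller. With the left-out peaks counted, the windows from 1.2 to 1.3 Mb (81 DHX9-Rb and 37 DHX9-mAb peaks) and from 43.1 to 43.2 Mb (66 and 21) would come before both. Among the members, minus-strand windows followed at 1329009 to 1365108, with 44 DHX9-Rb and 12 DHX9-mAb peaks, and at 42116177 to 42183566, with 40 and 12. Between 27721749 and 27784769 the plus strand alone carried 33 and 11 peaks.

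Adjoining windows could lie on opposite strands. From 37511098 to 37593890 there were 33 DHX9-Rb and 6 DHX9-mAb peaks, all minus, and from 37622068 to 37694460 there were 31 and 5, all plus. Near the long-arm end, the window from 79806247 to 79844959 held 32 and 6 peaks, with 26 of the DHX9-Rb peaks on the minus strand. Near the short-arm end, 30 and 4 minus-strand peaks lay between 801927 and 876975. The window from 73783101 to 73799846 also had 30 DHX9-Rb peaks, all plus, yet 14 DHX9-mAb peaks. At equal DHX9-Rb number, DHX9-mAb thus overlapped 4 of 30 DHX9-Rb peaks in the first of these last windows and 15 of 30 in the other. The peaks of the first were spread over a longer distance and were narrower, with a median DHX9-Rb width of 181.5 nt against 210 nt.

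At the scale of 1 Mb, the stretch from 27 to 28 Mb held most members, with 160 DHX9-Rb and 42 DHX9-mAb peaks. With the left-out peaks counted, 1 to 2 Mb held 168 and 55. Among the members, 29 to 30 Mb with 116 and 33 and 42 to 43 Mb with 112 and 32 came next. The stretch at 27 to 28 Mb was of mixed strand (40.6% plus), that at 29 to 30 Mb almost all plus (92.2%) and that at 42 to 43 Mb mostly minus (11.6% plus). In segments of 10 Mb the first, from 0 to 10 Mb, held 397 DHX9-Rb peaks, or 19.03% of those on the chromosome, and that from 60 to 70 Mb held 105, or 5.03%. The plus strand took 75.2% of the DHX9-Rb peaks between 50 and 60 Mb and 30.8% between 40 and 50 Mb. The divisions of 1 Mb and 10 Mb were picked with the lists in view.

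Along each strand the peaks formed runs. A run was a series of DHX9-Rb peaks on 1 strand with gaps of at most 5 kb. Neighbouring DHX9-Rb peaks on a strand were at most 1 kb apart in 1277 of 2084 cases (61.3%) and at most 5 kb apart in 1555 (74.6%), and the median gap within runs was 300 nt. Close to the limit, 32 gaps measured 4 to 5 kb and 27 measured 5 to 6 kb. The rule gave 531 runs, of which 212 were single peaks, 271 had 2 to 9 peaks and 48 had 10 or more. These 48 long runs, 20 on the plus and 28 on the minus strand, held 851 DHX9-Rb peaks (40.8%). They were 5.01 to 36.1 kb long, with a median of 12.5 kb, and the DHX9-Rb peaks filled a median of 32.9% of their length. Runs of 2 or more peaks never overlapped one on the other strand (0 pairs). Only 1 pair of DHX9-Rb peaks faced each other, at 29119622 to 29119802 on the minus strand and 29119643 to 29119917 on the plus strand, and no DHX9-mAb peaks did.

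The 10 runs with the most DHX9-Rb peaks showed different degrees of filling and of overlap with DHX9-mAb. The largest (run 1), on the minus strand from 1329009 to 1365108, had 44 DHX9-Rb and 12 DHX9-mAb peaks over 36.1 kb. It lies beside a left-out stretch, but no left-out peak was within 5 kb of it or of any other run on its strand (0 runs). Run 2, plus strand from 73783101 to 73804125, had 38 and 17 peaks. Run 3, minus strand from 42116177 to 42137301, was of nearly the same length and had 37 and 11. Run 4, plus strand from 29106979 to 29122932, was shorter at 16.0 kb and had 35 and 19 peaks. DHX9-Rb peaks filled 59.1% of run 4 and 31.1% of run 1, so the largest run was not the most crowded. Run 5, minus strand from 27597755 to 27611195, was the most crowded of the 10 at 2.53 DHX9-Rb peaks per kb, with 34 peaks in 13.4 kb, but it had only 5 DHX9-mAb peaks.

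Plus-strand runs 6 and 7 lay at 27721749 to 27734120 and 48798515 to 48813837. They held 26 and 25 DHX9-Rb peaks, with 8 DHX9-mAb peaks in each. Run 8, minus strand from 27141375 to 27167827, was the sparsest of the 10, at 0.907 peaks per kb, with 24 DHX9-Rb and 3 DHX9-mAb peaks. Runs 9 (4248026 to 4268680) and 10 (60089074 to 60106356), both minus, held 23 and 22 DHX9-Rb and 5 and 7 DHX9-mAb peaks. In the map of peaks within the runs, the DHX9-mAb peaks sat at or beside DHX9-Rb peaks and left long parts of a run unmarked.

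**Figure D2:**
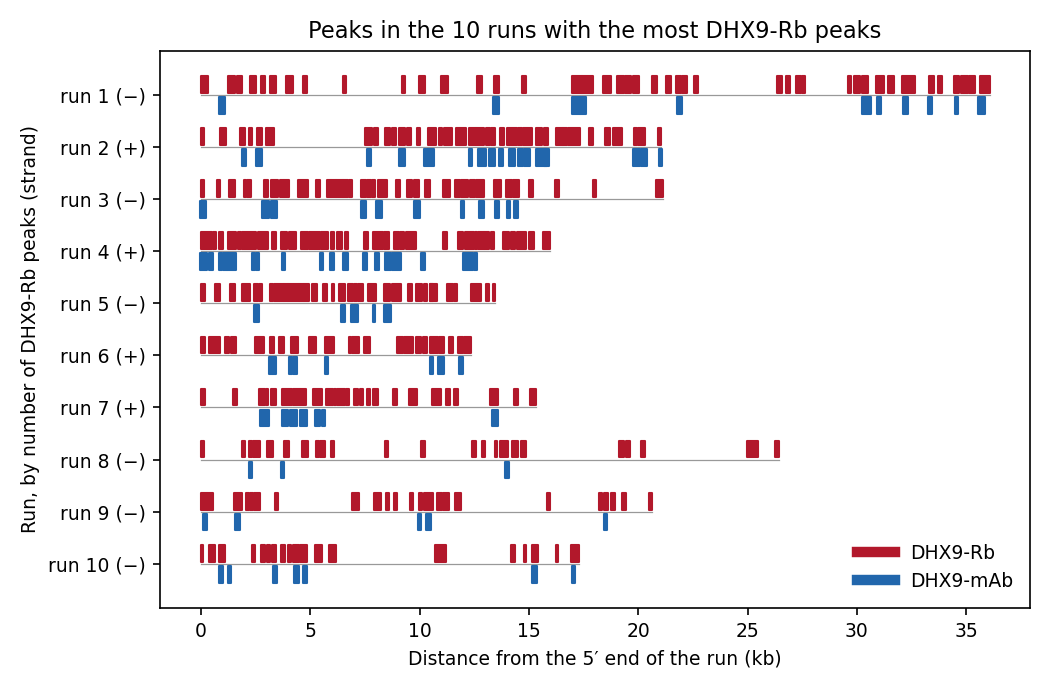
Peaks in the 10 runs of chromosome 17 with the most DHX9-Rb peaks, as distance in kb from the 5′ end of each run in the direction of its strand (given in brackets), with DHX9-Rb peaks in red above and DHX9-mAb peaks in blue below each line. Run 4 has 19 DHX9-mAb peaks among 35 DHX9-Rb peaks, whereas run 5, of which DHX9-Rb peaks fill 56.5%, has 5 among 34.

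DHX9-mAb marked a varying part of the long runs. A DHX9-Rb peak counted as overlapped when a DHX9-mAb peak of its strand covered 1 nt of it or more. The share of overlapped peaks in a run ranged from 0% to 76.9% over the 48 runs, with a median of 25.0%. It was highest on the minus strand from 26929395 to 26938097, where 10 of 13 DHX9-Rb peaks were overlapped (95% Wilson interval 49.7 to 91.8%). Next came 8 of 11 at 79526494 to 79531504 (minus), 13 of 19 at 6803729 to 6811759 (plus), 8 of 13 at 42876116 to 42881319 (minus) and 11 of 18 at 43015068 to 43024981 (minus). These 5 runs were all shorter than 10 kb, the longest measuring 9.91 kb.

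At the other end, none of the 16 DHX9-Rb peaks from 43143221 to 43155473 on the plus strand was overlapped (Wilson interval 0 to 19.4%). A single DHX9-mAb peak lay in that run without touching one. A single DHX9-Rb peak was overlapped in each of the next 4 runs. They had 15 DHX9-Rb peaks (46157943 to 46177207, minus), 14 (29608697 to 29614295, plus), 14 (79806247 to 79816710, minus) and 11 (822168 to 840108, minus), the last level with another run of 11 (49175749 to 49188301, minus). The interval of the lowest run does not overlap that of the highest. Both were picked as the ends of an order, so this is a description and not a test.

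DHX9-mAb peaks fell close to DHX9-Rb peaks on the same strand. Of the 564 DHX9-mAb peaks 489, or 86.7% (Wilson interval 83.7 to 89.3), overlapped a DHX9-Rb peak, against 88.1% on all other sequences together. The share was 92.6% on chromosome 19 and 90.7% on chromosome 22, so such closeness was not particular to chromosome 17. For the 489 the midpoints of the overlapping peaks were a median of 28.5 nt apart, and within 50 nt in 324 cases (66.3%). Of the 75 without a partner, 45 lay within 1 kb of a DHX9-Rb peak, 15 between 1 and 5 kb, and 15 farther away. The most distant, at 73244933 to 73245117 on the minus strand, was 68840 nt from the nearest. In the other direction 502 of the 2086 DHX9-Rb peaks, or 24.1% (22.3 to 25.9), overlapped a DHX9-mAb peak. Overlapped DHX9-Rb peaks were wider than the others, with medians of 232.5 and 192 nt. A wide peak has more room to overlap, so width and overlap are linked measures.

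DHX9-mAb recovered a smaller part of the DHX9-Rb peaks on chromosome 17 than on chromosome 19. It was 24.1% on chromosome 17, 32.8% (31.2 to 34.6) on chromosome 19 and 33.0% (30.3 to 35.7) on chromosome 22. Against chromosome 19 the odds ratio was 0.65 (95% interval 0.57 to 0.74, two-sided Fisher's exact test, p = 5.42e-11 adjusted by Benjamini-Hochberg over 4 tests). Against chromosome 22 it was 0.64 (0.55 to 0.76, exact test, adjusted p = 1.35e-07). In peak numbers, the ratio of DHX9-mAb to DHX9-Rb was 0.27 on chromosome 17, 0.348 on chromosome 19 and 0.351 on chromosome 22. The odds ratios of the numbers were 0.78 (0.69 to 0.87, exact test, adjusted p = 3.34e-05) and 0.77 (0.67 to 0.89, exact test, adjusted p = 0.000495). With an overlap of at least 50% of the DHX9-Rb peak required, the gap to chromosome 19 was smaller, 18.7% against 23.5% (odds ratio 0.75, exact test, unadjusted p = 4.41e-05). Peaks were left out on chromosome 17 only. With them put back its share was 24.8%, and the odds ratio against chromosome 19 was 0.67 (exact test, unadjusted p = 3.45e-10). Peaks of a run are not independent, and the difference was known when the chromosome was chosen, so these p-values describe the 2 lists.

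The result depended on the unit counted. With each run counted once, 219 of 531 runs on chromosome 17 (41.2%, Wilson interval 37.1 to 45.5) and 229 of 546 on chromosome 19 (41.9%, 37.9 to 46.1) held at least 1 overlapped DHX9-Rb peak. At this level the odds ratio was 0.97 (95% interval 0.76 to 1.24, two-sided Fisher's exact test, p = 0.853), and a difference was not detectable. A gap appeared in how many peaks of a long run were overlapped. Long runs also held different parts of the DHX9-Rb peaks, 40.8% on chromosome 17 and 55.9% on chromosome 19. Over all long runs, 28.0% of DHX9-Rb peaks were overlapped on chromosome 17 (Wilson interval 25.1 to 31.1) and 42.1% on chromosome 19 (39.7 to 44.5). The median share per long run was 25.0% over 48 runs on chromosome 17, 40.0% over 83 runs on chromosome 19 and 40.0% over 37 runs on chromosome 22. At least 50% of the DHX9-Rb peaks were overlapped in 7, 26 and 11 of these runs. Of the single peaks, 31 of 212 were overlapped on chromosome 17 (14.6%, 10.5 to 20.01) and 15 of 181 on chromosome 19 (8.29%, 5.09 to 13.2), with overlapping intervals.

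**Figure D3:**
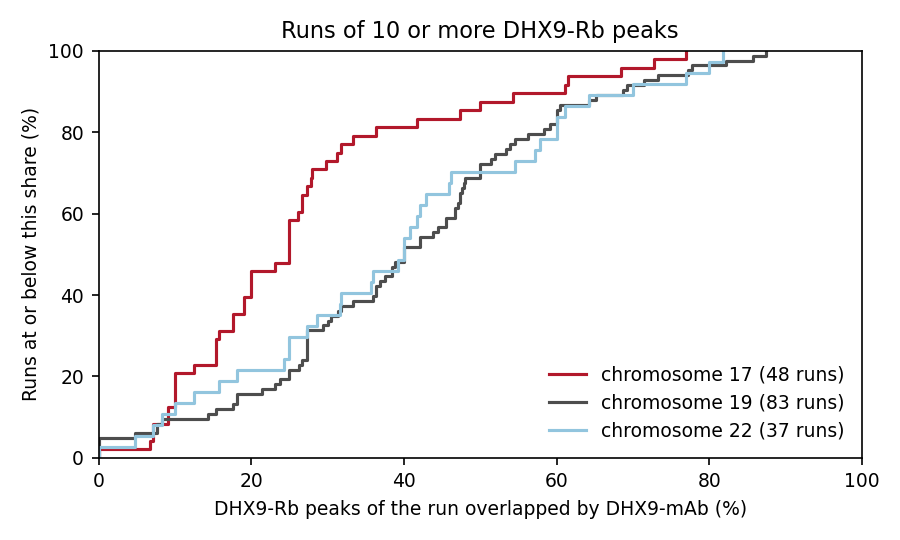
Cumulative share of the runs of 10 or more DHX9-Rb peaks (vertical axis, percent of the runs of each chromosome) against the percent of the run's DHX9-Rb peaks overlapped by DHX9-mAb. The curve of chromosome 17 (48 runs, median 25.0%) lies to the left of those of chromosomes 19 and 22 (medians 40.0%) over most of its course.

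The share was also read by the density of the window and by the width of the peak. Chromosome 17 had 37.3% of its DHX9-Rb peaks in windows of 20 or more, and chromosome 19 had 53.0%. In such windows 26.1% of the peaks (Wilson interval 23.1 to 29.3) were overlapped on chromosome 17, 39.9% (37.5 to 42.3) on chromosome 19 and 36.4% (32.7 to 40.2) on chromosome 22. In windows with 10 to 19 peaks the shares on chromosomes 17 and 19 were 26.7% (23.4 to 30.2) and 30.2% (27.0 to 33.5), with overlapping intervals. In windows with 5 to 9 peaks they were 21.7% (17.9 to 26.1) and 20.6% (16.8 to 25.0), and in windows with 2 to 4 they were 17.9% and 15.4%, with overlapping intervals. With the density classes weighted as on chromosome 19, the share of chromosome 17 would be 24.8%. By width, peaks of 300 nt or more were overlapped in 39.1% of cases (34.3 to 44.2) on chromosome 17 and 55.2% (51.6 to 58.7) on chromosome 19, and those from 200 to under 300 nt in 24.7% (21.6 to 28.09) and 31.0% (28.13 to 34.0). Peaks under 150 nt were overlapped in 19.1% and 21.5%, and those from 150 to under 200 nt in 17.7% and 19.8%. Weighted by the widths of chromosome 19, the share would be 25.7%. The intervals of the 2 chromosomes were apart in windows of 20 or more peaks and for peaks of 200 nt or more, narrowly so from 200 to under 300 nt. The part of density and width in the gap was not tested.

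**Figure D4:**
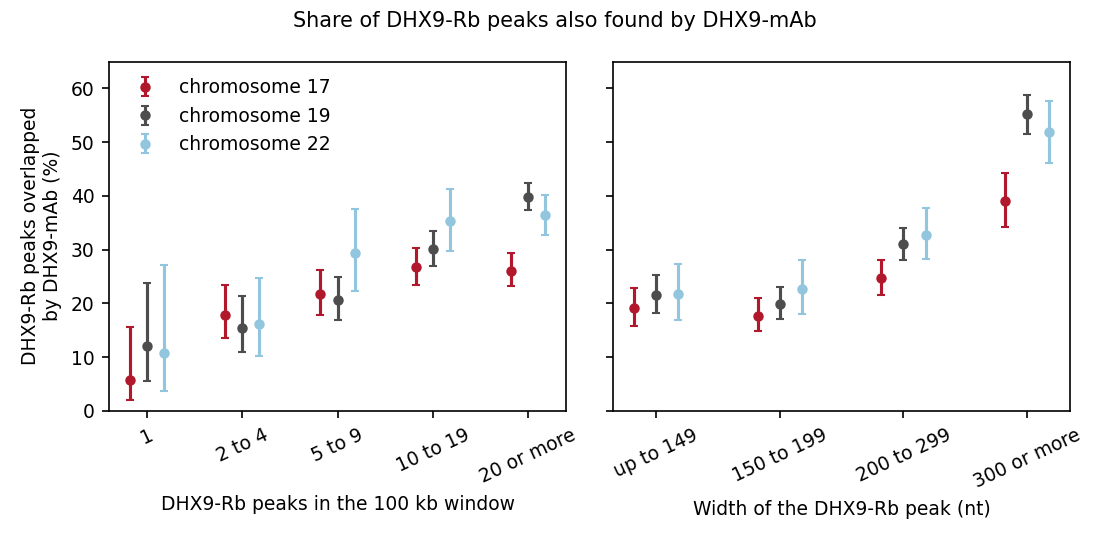
Percent of DHX9-Rb peaks overlapped by a DHX9-mAb peak, by the number of DHX9-Rb peaks in their 100 kb window (left) and by their width (right), with 95% Wilson intervals for chromosomes 17, 19 and 22. Chromosome 17 lies below the others in windows with 20 or more peaks (26.1% against 39.9% and 36.4%) and for peaks of 300 nt or more.

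Against the whole genome, chromosome 17 was a little below the median, while chromosomes 19 and 22 were near the top. Among the 23 sequences with at least 100 DHX9-Rb peaks its share of overlapped peaks ranked 9 from the lowest at 24.1%, and the median over them was 25.7%. Chromosomes 19 and 22 ranked 21 and 22, at 32.8% and 33.0%. With the peaks of all other sequences pooled, 5620 of 19380 DHX9-Rb peaks were overlapped, or 29.0% (Wilson interval 28.4 to 29.6). The pooled share thus lay farther above chromosome 17 than the median did. Chromosome 17 made up 9.72% of the DHX9-Rb list and 8.33% of the DHX9-mAb list without the left-out stretches. The odds ratio was 0.84 (95% interval 0.77 to 0.93, two-sided Fisher's exact test, p = 0.00481 adjusted by Benjamini-Hochberg over 25 sequences). This test passed 0.05 for 4 of the 25 sequences, or 16.0%. Chromosome 19 passed it too, in the other direction (odds ratio 1.12, exact test, adjusted p = 0.0262). The call of chromosome 17 held with the 3 stretches put back (exact test, adjusted p = 0.0207) and with peaks within 50 nt merged (exact test, adjusted p = 0.0217). It was lost with both changes at once, when the odds ratio was 0.88 (exact test, adjusted p = 0.0942). Each peak counts as independent in this test, which peaks of a run are not. The chromosome was also chosen with the difference known. These p-values therefore describe the lists and are no separate evidence for the difference.

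No window of chromosome 17 passed the test for a difference between the antibodies. Windows of 100 kb holding 10 peaks or more were compared by Fisher's exact test on both lists, and 6 of the 818 such windows of the genome (0.733%) passed 0.05 after Benjamini-Hochberg adjustment. The test passed in 0 of the 92 tested windows of chromosome 17 that held no left-out peak. The smallest adjusted p there was 0.407 (exact test), and 2 windows had an unadjusted p below 0.05, both richer in DHX9-mAb. A window with DHX9-Rb peaks alone would have needed 32 of them to pass, and 16 of the 92 reached that number over both lists. The test therefore had little room to call a window poor in DHX9-mAb.

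Windows that DHX9-mAb missed held few DHX9-Rb members. There were 106 outside the left-out stretches, of 266 windows with a DHX9-Rb member. Such windows were about as common on chromosome 19, with 100 of 265, and on chromosome 22, with 47 of 125. The fullest on chromosome 17, from 43218248 to 43235920, held 10 DHX9-Rb peaks, 4 plus and 6 minus. The next held 9 plus-strand peaks (73009123 to 73054373), 8 minus-strand peaks (74300217 to 74388239) and 7 minus-strand peaks (2021395 to 2072708). A window with 6 minus-strand peaks between 1430370 and 1432998 came next, level with others of 6. Window borders matter here, since the run from 74290114 to 74306097 crosses into the window with 8 and has 3 DHX9-mAb peaks before the border. The left-out peaks change this order, since the window from 73.1 to 73.2 Mb held 19 DHX9-Rb and 0 DHX9-mAb peaks. On chromosome 19 the fullest window of this kind held 11 DHX9-Rb peaks and on chromosome 22 it held 12.

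Long stretches of chromosome 17 had no peak of either antibody on either strand. There were 16 of at least 1 Mb, and they summed to 31.2 Mb, or 38.8% of the distance from the first to the last peak. Chromosome 19 had 6 such stretches (19.6%) and chromosome 22 had 6 (28.1%). The longest, 4.16 Mb, ran from 66392053 to 70547791. The second, 3.79 Mb from 22020826 to 25810571, covers the centromere, where the assembly holds little sequence to which a read could map. The third, 3.66 Mb from 49352212 to 53016888, and the fourth, 2.36 Mb from 53017657 to 55381062, were parted only by DHX9-Rb peaks between 53016889 and 53017656, 3 in number. The fifth, 2.13 Mb, lay on the short arm from 10582243 to 12716909. Whether these stretches lack transcripts in HEK293 cells was not tested, because no RNA level was measured here.

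**Figure D5:**
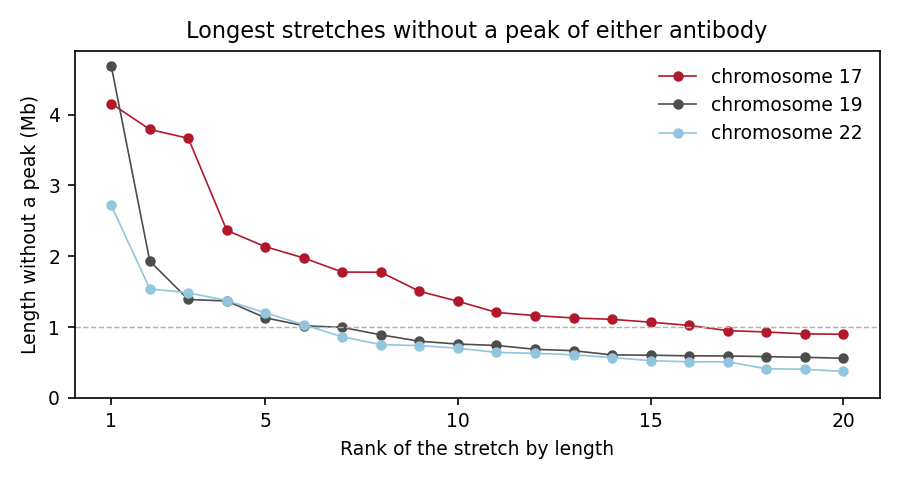
Length in Mb of the 20 longest stretches without a peak of either antibody on chromosomes 17, 19 and 22, ordered by length, with a dashed line at 1 Mb. Chromosome 17 has 16 stretches of 1 Mb or more against 6 on each of the others, although the single longest stretch, of 4.69 Mb, is on chromosome 19. The numbers are not scaled to the distance from first to last peak, which is 80.3 Mb on chromosome 17, 58.8 Mb on chromosome 19 and 33.2 Mb on chromosome 22.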

How the data were processed

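Per the submitters' processing notes, reads were handled with Bowtie2 2.2.6 and the assembly hg19, and per the second column of the files the authors called peaks with PEAKachu. Not given in the sources used here are its version, settings and control and the handling of reads from repeats, which could change the peaks called. The deposited values are positions counted from 1, and the score column was empty (0 cells with a number). Read depth is unknown. Each list stands for both replicates of its antibody, per the labels, and where peaks share a transcript p-values measure the 2 lists only.

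Members and lists of regions were chosen with earlier results of these data known. Peaks were placed in windows by their midpoint. Overlap meant at least 1 nt on the same strand. Shares have 95% Wilson intervals, and Fisher's exact test, two-sided, served to compare numbers, with Benjamini-Hochberg adjustment at 0.05. For windows it was run on all peaks, and for the share of each sequence on all but the left-out peaks. For a pair of chromosomes it used their peaks alone, again without the left-out ones. The interval and test cover counting error only. The window test was tried on lists thinned at random from the DHX9-Rb peaks. Overlap was checked by direct comparison of all peaks of 1 chromosome, and runs and stretches on a small hand-made example. Regions named were the 10 densest windows, the 10 largest runs, the 5 long runs at each end of the order of overlap, the 5 longest empty stretches and the 5 fullest windows without DHX9-mAb. The planned naming of genes and gene families would need an annotation of hg19 and was not run. The tools were SciPy 1.17.1, pandas 2.3.3, NumPy 2.4.6 and, for plots, matplotlib 3.10.9 under Python 3.11.15.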

Additional observations from a re-analysis of the deposited data

How the results depend on the processing

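Of 68 recomputed values, 61 kept their side of the test's threshold, stayed inside the Wilson interval of the reported share, or, for counts, lengths and widths, stayed within 1.5 times the reported value, and none reversed. That last limit is wide: with DHX9-mAb peaks alone the longest empty stretch was 6.20 Mb in place of 4.16 Mb, and runs numbered 659 with gaps up to 2 kb and 429 with gaps up to 10 kb in place of 531. Some of the 61 could not move. The odds ratio of peak numbers does not use overlap and stayed at 0.78 when overlap was redefined. The number of runs stayed at 531 with peaks within 50 nt merged, since runs already join such peaks. With the whole of chromosome 17 and peaks within 50 nt merged, the odds ratio of its share of the lists was 0.88 (exact test, adjusted p = 0.0942). With each run counted once, whatever part of it was overlapped, the odds ratio against chromosome 19 was 0.97 (exact test, p = 0.853). Both settings were chosen after seeing the data. Under the 6 other alternatives of the comparison of overlapped DHX9-Rb peaks with chromosome 19, the odds ratio ranged from 0.61 to 0.75. Against all other sequences together it was 0.78. An overlap of at least 50% of the peak lowered the overlapped part to 18.7% of DHX9-Rb and 77.3% of DHX9-mAb peaks, and keeping only peaks of at least 150 nt lowered it to 21.4% and 81.4%. With that width limit 17 windows held 20 or more DHX9-Rb peaks in place of 27. No window of chromosome 17 was called in windows of 50 or 200 kb, with at least 5 or 20 peaks, or with merged peaks (0 in each), where 1 to 5 windows had an unadjusted p below 0.05. The lists hold no score, so a stricter threshold of the authors' caller could not be set. No paired analysis was possible because each list pools both replicates, and for the same reason no replicate could be left out. What read depth limits could not be measured.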
